A study of Mus musculus with 3 samples.

Results

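Runx3 ChIP-seq peaks of resting natural killer cells (NKC) were examined where they lay between protein-coding genes and at some distance from any start. The members were the peaks whose midpoint was at least 5 kb and under 50 kb from the nearest annotated transcript start and outside every protein-coding gene body, and they are called intergenic distal peaks here. Of 15524 Runx3 peaks, 2583 (16.6%) met this rule, which uses positions and no measured strength. The series holds 3 ChIP samples of freshly isolated splenic NKC of ICR mice, described as wild-type in the study's methods: 1 precipitated with a polyclonal anti-Runx3 antibody, 1 with an antibody to histone H3 monomethylated on lysine 4 (H3K4me1) and 1 with non-immune rabbit serum (NIS) as the control. No allele or agent was used to perturb these cells, and their age is not given in the sources used here. The labels name NKp46 as the sorting marker while the methods name DX5. The processed data are 1 list of Runx3 peaks and 1 list of 49902 H3K4me1-marked regions, both as coordinates on mouse build mm9. There were no replicate lists. The intervals below are 95% intervals for counting error over regions, which are not biological replicates, and no read number or signal height stands behind a single region.

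Runx3 belongs to the RUNX family of transcription factors, which bind a short DNA consensus through the Runt domain together with the partner CBFβ. Among its relatives, Runx3 is the one best known from CD8 T cells and NKC. H3K4me1 marks the histones of enhancers and of the flanks of active promoters. Enhancers often lie in clusters between genes, from which they can act on a start many kilobases away. NKC are innate lymphocytes that kill target cells with granzymes, perforin and Fas ligand and that secrete interferon-γ and chemokines.

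The central 200 bp of 5 intergenic distal peaks are given here from mm9, plus strand, to show the letters that the later sections count. Capitals mark the RUNX hexamers on either strand, which are TGTGGT or else TGTGGC and, with a CpG inside, TGCGGT or else TGCGGC. For each of 4 genes of NKC, the peak shown held the most hexamers in that window among those for which the gene had the nearest protein-coding start. The last sequence is that of the widest H3K4me1-overlapping member with no hexamer anywhere in it, upstream of Xcr1, which encodes the receptor for the chemokine Xcl1.
Ifng (chr10:117906227-117906426): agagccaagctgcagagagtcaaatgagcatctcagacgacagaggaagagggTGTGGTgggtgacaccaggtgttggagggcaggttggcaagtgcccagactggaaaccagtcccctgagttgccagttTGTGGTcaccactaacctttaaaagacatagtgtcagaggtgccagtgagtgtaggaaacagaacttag
Ccl5 (chr11:83352441-83352640): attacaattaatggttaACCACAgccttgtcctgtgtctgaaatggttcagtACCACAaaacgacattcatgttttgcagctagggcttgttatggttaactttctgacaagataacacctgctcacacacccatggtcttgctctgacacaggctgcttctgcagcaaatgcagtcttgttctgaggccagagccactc
Tbx21 (chr11:96990414-96990613): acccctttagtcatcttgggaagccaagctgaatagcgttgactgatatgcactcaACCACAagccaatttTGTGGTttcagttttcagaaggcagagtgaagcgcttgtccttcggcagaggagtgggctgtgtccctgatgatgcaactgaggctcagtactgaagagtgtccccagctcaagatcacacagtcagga
Cxcr4 (chr1:130504837-130505036): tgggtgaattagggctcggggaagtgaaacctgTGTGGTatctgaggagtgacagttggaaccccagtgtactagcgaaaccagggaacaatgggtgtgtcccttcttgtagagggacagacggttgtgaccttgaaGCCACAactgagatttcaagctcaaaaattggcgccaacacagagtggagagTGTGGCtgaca
Xcr1 side (chr9:123781695-123781894): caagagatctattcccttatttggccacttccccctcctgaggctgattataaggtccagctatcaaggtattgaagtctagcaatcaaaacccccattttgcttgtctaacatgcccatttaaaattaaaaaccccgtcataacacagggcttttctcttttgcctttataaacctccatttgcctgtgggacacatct
The windows beside Ifng, Ccl5 and Tbx21 held 2 hexamers each and that beside Cxcr4 held 3. The Tbx21 window carried 1 hexamer on each strand, set a few bases apart, whereas both hexamers of the Ccl5 window were read on the minus strand.

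The positions that met the rule made up 663.8 Mb, 26% of the sequenced bases of the 20 chromosomes. Intergenic distal peaks lay there at 3.89 per Mb, compared with 6.07 per Mb over all positions. Runx3 peaks inside protein-coding genes at the same distances were denser, at 5.86 per Mb (3079 peaks in 525.2 Mb), and peaks over 50 kb from a start were sparser, at 1.42 per Mb. H3K4me1-marked regions covered 3.01%, 6.73% and 1.31% of these territories, in the same order as the peak densities. The members had a median width of 812 bp (quartiles 682 and 945 bp, range 374 to 7516 bp). Their median distance to the nearest start was 16.35 kb (quartiles 9.79 and 26.89 kb), and to the nearest protein-coding start 22.34 kb. Within the rule, density fell with distance, from 4.86 per Mb at 5 to 10 kb through 4.39, 3.77 and 2.88 to 2.55 per Mb at 40 to 50 kb. The H3K4me1-covered share of these bands fell alongside, from 3.73% to 2.07%. The members nearest to the bounds lay 5006 and 5012 bp and 49901 and 49923 bp from a start, and the closest peaks left out lay at 4981 and 4982 bp and at 50008 and 50014 bp.

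Nearly every member lay on an H3K4me1-marked region. An overlap of at least 1 base was found for 2452 of 2583 members (94.9%, interval 94 to 95.7%), against 95.7% of all Runx3 peaks, so the overlap as such did not set these peaks apart. The share changed little with distance, between 94% at 5 to 10 kb and 95.6% at 20 to 30 kb. Intragenic peaks at the same distances overlapped slightly more often (97%, interval 96.3 to 97.6%). In position on the mark, the members differed from the peaks under 1 kb from a start and lay near the other classes. The midpoint lay inside a marked region in 93.4% of members, and 89.7% of members lay wholly inside one. Of the peaks under 1 kb from a start, 66.2% had their midpoint inside and 32.1% lay wholly inside. The midpoint was inside for 96.7% of intragenic peaks, 93.6% of peaks over 50 kb out and 94.5% of those at 1 to 5 kb. Wholly inside lay 95.4%, 91.9% and 89.2% of these classes. On a scale that is 0 at the edge of a region and 1 at its centre, the median member sat at 0.754. The median was 0.741 for intragenic peaks, 0.757 over 50 kb out, 0.689 at 1 to 5 kb and 0.369 under 1 kb.

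**Figure D1:**
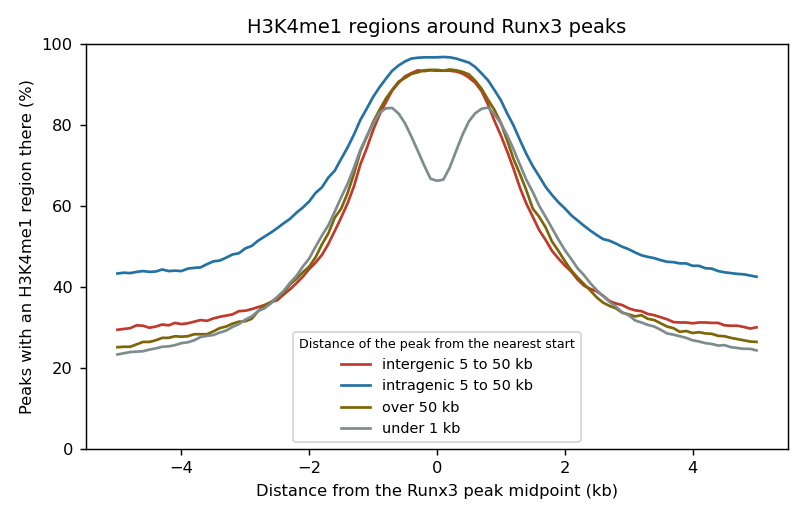
Share of Runx3 peaks (%) that have an H3K4me1-marked region at each distance from the peak midpoint (kb, left and right along the chromosome), for 4 position classes. For the intergenic distal peaks the curve is flat around the midpoint (93.4% there) and falls to 44.4% and 45.3% at 2 kb on either side, whereas the peaks under 1 kb from a start dip to 66.2% at the midpoint.

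The mark around the members was narrower than around intragenic peaks and wider than around peaks under 1 kb from a start. Each peak was assigned to the marked region with which it shared the most bases, and 2102 regions were assigned a member. Their median width was 3268 bp (quartiles 2234 and 5354 bp, range 432 to 49475 bp, interval of the median 3151 to 3411 bp). The regions of intragenic peaks at the same distances had a median of 4428 bp (interval 4266 to 4669 bp) and those of peaks over 50 kb out 3578 bp (interval 3426 to 3722 bp). Regions assigned a peak 1 to 5 kb from a start were also wider than those of the members, with a median of 4584 bp (interval 4396 to 4723 bp). Those assigned a peak under 1 kb from a start had a median of 1961 bp, all 49902 regions 1801 bp, and the 35626 regions that touched no Runx3 peak 1614 bp. The last 3 medians lay below the interval of the members. A wider region offers more bases in which a peak can lie, and the part this plays in the difference from regions without Runx3 was not tested.

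Part of the width went with the number of peaks on a region. Among regions assigned a member, the median was 2854 bp with 1 Runx3 peak (1756 regions), 7105 bp with 2 (227 regions), 11815 bp with 3 (81 regions) and 16946 bp with 4 or more (38 regions). With exactly 1 Runx3 peak, the regions of intragenic peaks (3558 bp, interval 3449 to 3677 bp) and of peaks over 50 kb out (3230 bp, interval 3076 to 3360 bp) were still wider than those of the members (interval 2772 to 2948 bp). No order of width by distance to the start was seen: the medians of the 5 distance bands were 3462, 3424, 3557, 3056 and 3500 bp, and all intervals overlapped one another. A width of at least 10 kb was reached by 167 regions with a member (7.94%, interval 6.86 to 9.18%), by 18.6% of those with an intragenic peak and by 0.359% of those without Runx3. At least 20 kb was reached by 17 regions with a member (0.809%) and by 5.28% of those with an intragenic peak. At least 19953 bp was reached by 0.856% of regions with a member. This width was reached by 0.965% of those with a peak under 1 kb from a start and 1.04% with a peak over 50 kb out.

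**Figure D2:**
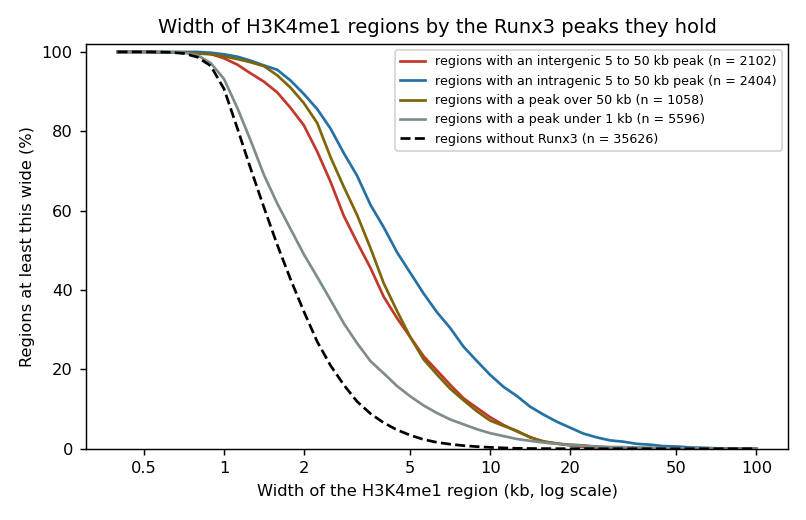
Share of H3K4me1-marked regions (%) that are at least as wide as the value on the x axis (kb, log scale), for regions grouped by the Runx3 peaks assigned to them and for regions that touch none. At most widths, the curve of the intergenic distal peaks (median 3268 bp) lies below that of the intragenic peaks (4428 bp). At most widths up to 17783 bp it lies above that of the peaks under 1 kb from a start (1961 bp). At 19953 bp it lies below the latter (0.856% against 0.965%), as it does at 28184 bp (0.0951% against 0.429%).

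The widest marked regions with a member lay beside known genes of lymphocytes and beside others. The widest of all spanned 49475 bp from the end of the gene body of Ugcg, which encodes the enzyme that makes glucosylceramide, toward Susd1, and it held 7 Runx3 peaks. The next, 35717 bp wide with 9 Runx3 peaks, reached from just upstream of Tbx21, the gene of the T-box factor T-bet, into the neighbouring Tbkbp1 locus. The others were 27609 bp wide beside Rcbtb2, 27177 bp wide over and downstream of Fasl and 26872 bp wide beside Atp6v1g3, and they held 5, 5 and 4 Runx3 peaks.

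Close neighbours were common among the members, but not more so than among Runx3 peaks in general. Another Runx3 peak of any class lay within 10 kb of 1246 members (48.2%, interval 46.3 to 50.2%), against 46.6% of all Runx3 peaks. The share was 52.1% (interval 50.3 to 53.8%) for intragenic peaks at the same distances and 39.4% (interval 36.9 to 42.1%) for peaks over 50 kb out. It was 59.2% for members at 5 to 10 kb from a start and between 39.2% and 49.4% in the farther bands. Neighbours were not split by class, so the part that start-proximal peaks play in this was not tested. The median distance to the nearest other peak was 10.65 kb, against 11.75 kb for all Runx3 peaks and 9.327 kb for intragenic peaks. Another peak lay within 2 kb of 12.7% of members (interval 11.4 to 14%) and of 14.6% of all Runx3 peaks (interval 14.1 to 15.2%). This share was 12.9% for intragenic peaks, 11.8% over 50 kb out, 22.1% at 1 to 5 kb and 14% under 1 kb.

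Members that followed each other at no more than 10 kb were joined into clusters. This gave 1611 members that stood alone and 394 clusters of 2 or more, which together held 972 members. Most clusters were pairs (277) or triplets (76), and 16 clusters held 5 or more members, 90 in all. Marked regions assigned a clustered member had a median width of 4970 bp (interval 4527 to 5330 bp, 617 regions), compared with 2868 bp (interval 2776 to 2974 bp, 1486 regions) for members alone. A wide region can hold several members of a cluster, and the part this plays in the contrast was not tested.

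The largest cluster held 9 members over 32.3 kb and filled the space between the chemokine genes Ccl5 and Ccl9 (chr11:83349775-83383457). These members lay 6.45, 8.52, 10.6, 13.9, 19.9, 26.5, 28.3, 30.1 and 38.8 kb upstream of the Ccl5 start, spread over 4 marked regions of 16689, 6061, 11329 and 7299 bp. Those from 26.5 kb outward were nearer to the Ccl9 start, at 18.5, 16.7, 14.8 and 6.17 kb. Ccl5 encodes RANTES, a chemokine that NKC store and release. All 9 members held a RUNX hexamer, and 7 held one in the central 200 bp. The next cluster by span held 7 members over 19.6 kb between Il2rb and C1qtnf6 (chr15:78332400-78353053). Il2rb encodes the β chain shared by the receptors for interleukin 2 and interleukin 15, on which NKC depend. The members of this cluster lay 7.44, 15.7, 17.2, 19.9, 21, 23.4 and 27.1 kb upstream of the Il2rb start, and the 6 farther ones shared 1 marked region of 25646 bp. Those from 19.9 kb outward were nearer to the C1qtnf6 start, at 14.7, 13.5, 11.2 and 7.48 kb. In this space, 99.7% of the positions that met the rule were marked.

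The rest of the 5 largest clusters lay between other genes. A further 7 members were spread over 21.2 kb between Gm6772 and 6430527G18Rik (chr12:88159886-88181906), 44.2 to 65.4 kb downstream of the nearest protein-coding start, which was that of 6430527G18Rik. A cluster of 6 lay between Pcbp1, which encodes an RNA-binding protein, and Asprv1 (chr6:86542945-86559952) within 15.7 kb and on 2 marked regions. Another 6 lay between Smndc1, which encodes a splicing factor, and Dusp5, the gene of an ERK phosphatase (chr19:53469885-53499799), within 28.3 kb and on 3 marked regions. All members of these 5 clusters overlapped H3K4me1. Further clusters of 5 included those between Tnfsf18 and Fasl on 1 marked region, between Nfil3 and Ror2 on 2, between Ccr3 and Ccr2 on 3, between Il1rl2 and Il1rl1 on 2 and between Olfm3 and S1pr1 on 4, which were picked out after their values were seen.

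**Figure D3:**
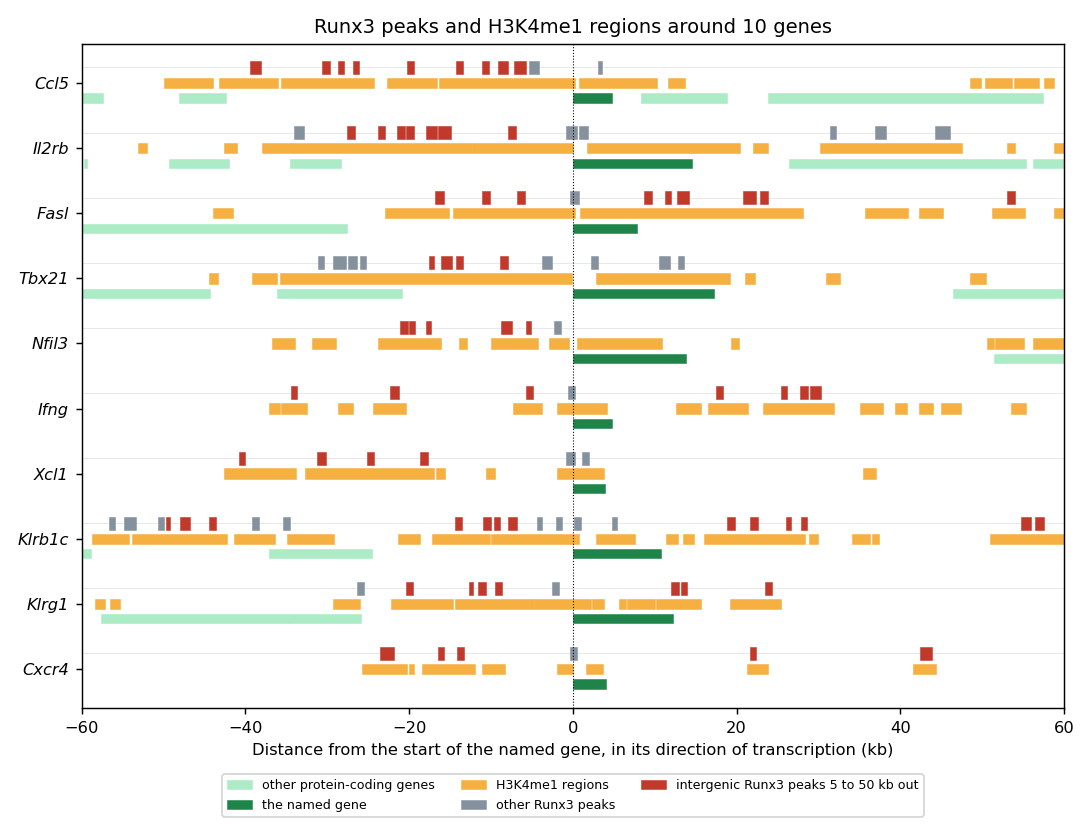
Runx3 peaks (red, intergenic distal peaks, and grey, all others), H3K4me1-marked regions (orange) and protein-coding gene bodies (dark green, the named gene, and light green, others) within 60 kb of the start of 10 genes. The x axis is the distance from the start of the named gene along its direction of transcription (kb). The 9 members beside Ccl5 and the 7 beside Il2rb all lie upstream of the start, and those beside Fasl and Ifng lie on both sides.

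Flanking genes were taken as the nearest protein-coding gene body on either side. A member lay beside 2890 of 22350 protein-coding genes (12.9%), and 1657 genes had the nearest start to at least 1 member. Both flanks were present for 2577 members, and the space between the flanking genes had a median of 78.81 kb. Members were denser in short spaces, with 6.82 per Mb in spaces under 50 kb, 4.93 per Mb from 50 to 200 kb and 1.86 per Mb over 200 kb. Density differed little with the orientation of the flanking genes: 4.03 per Mb between genes in tandem, 3.8 per Mb between divergent genes and 3.69 per Mb between convergent genes. Of the members, 66% (interval 64.2 to 67.8%) lay upstream of the nearest protein-coding start, compared with 62.4% of the bases that met the rule.

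Genes next to members often carried Runx3 at their own start, as did those next to intragenic peaks. The nearest protein-coding gene had a Runx3 peak with its midpoint within 1 kb of a start for 1102 members (42.7%, interval 40.8 to 44.6%). Of the bases that met the rule, 18.8% had such a gene nearest, so that members lay at 8.85 per Mb in that part of the territory. By peak, the share was higher for intragenic peaks at the same distances (46.7%, interval 44.9 to 48.4%) and lower for peaks over 50 kb out (36.6%). Over all Runx3 peaks it was 64.1%, a set that includes the peaks at starts themselves. Counted by gene, 657 of the 1657 nearest genes (39.6%, interval 37.3 to 42%) had a Runx3 peak at a start, against 26.5% of all protein-coding genes. An H3K4me1-marked region lay within 1 kb of a start for 80.1% (interval 78.1 to 81.9%) of the nearest genes and for 59% of all. In the 5 largest clusters this varied: Il2rb had Runx3 at a start, whereas Ccl5 and Ccl9 did not by this measure.

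Of 14755 spaces with any base that met the rule, 1568 (10.6%) held a member, and these spaces made up 17.4% of the bases. The genes with the most members beside them were Cxcr4 with 12, and 6430527G18Rik, Fasl, Klrb1c, Lclat1, Prex1, Rap1b and Zeb2 with 10 each, followed by 10 genes with 9 each, among them Ccl5, Ccl9, Ifng and Ugcg. Counts of this kind grow with the space available. Per 100 kb of bases that met the rule, the spaces beside Klrb1c held 14.3 members, those beside Rap1b, a small GTPase, 9.37, and those beside Cxcr4 2.89. Beside Zeb2, a zinc-finger factor of lymphocyte differentiation whose space to Acvr2a is 3696.7 kb wide, the value was 0.759.

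The gene lists were read by space as well, beside the 12.9% of all protein-coding genes that had a member. The lists were chosen with earlier results of these data known, so the contrasts between them are descriptive only. For cytokines and chemokines, 10 of 15 genes had a member beside them and their spaces held 53.7 members per Mb, compared with 3.89 per Mb over all spaces. The spaces beside NK receptors held 37 per Mb (17 of 33 genes with a member), those of cytokine receptors and signalling genes 36.1 (21 of 30), those of trafficking and adhesion genes 27.5 (13 of 23) and those of cytotoxic effectors 25.9 (6 of 18). Transcription factors of lymphocytes, many of which lie in wide spaces, had members beside 36 of 52 genes at 13.1 per Mb. As shares of genes, the 6 lists so far ran from 33.3% (interval 16.3 to 56.3%) for cytotoxic effectors to 70% (interval 52.1 to 83.3%) for cytokine receptors and signalling genes. T cell genes had 5 of 17 at 3.68 per Mb, B cell genes 3 of 15 at 2.39, myeloid genes 2 of 16 at 2.27, and genes of other tissues 1 of 18 at 0.725 per Mb, with 1 listed gene not found in the annotation. As shares, these 4 lists had 29.4% (interval 13.3 to 53.1%), 20% (7.05 to 45.2%), 12.5% (3.5 to 36%) and 5.56% (0.988 to 25.8%) of their genes beside a member. The interval of the T cell share lay just above the share over all protein-coding genes, and those of the other 3 include it. The mark followed the same order in broad terms, covering between 10.4% and 27.4% of the spaces of the first 6 lists and between 1.29% and 5.51% of the last 4. Per Mb of marked sequence the lists lay closer together, between 56.2 and 196 members per Mb, with 129 over all spaces.

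**Figure D4:**
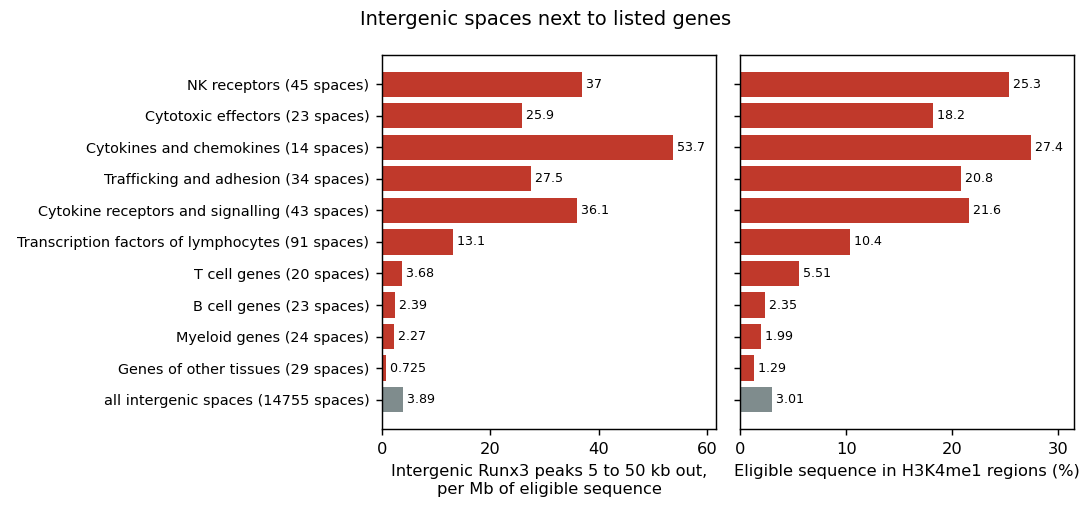
Intergenic distal peaks per Mb of sequence that meets the rule (left) and share of that sequence in H3K4me1-marked regions (right, %), in the intergenic spaces beside the genes of each list and in all spaces (grey). The bars of the 6 lists from NK receptors to transcription factors of lymphocytes reach 13.1 to 53.7 per Mb. That of the T cell list lies at 3.68 per Mb, and those of the B cell, myeloid and other-tissue lists lie at or under 2.39 per Mb. All spaces together lie at 3.89 per Mb. The lists were chosen with earlier results of these data known.

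Among effector genes, Ifng, which encodes interferon-γ, had 9 members beside it. Of these, 3 lay upstream at 34, 21.8 and 5.32 kb, 4 lay downstream of the start at 17.9, 25.8, 28.2 and 29.6 kb, and 2 lay far downstream at 376 and 414 kb, toward Dyrk2. Fasl, the gene of Fas ligand, had 10, at 6.33, 10.6 and 16.3 kb upstream and at 9.17, 11.6, 13.4, 21.6, 23.3, 53.5 and 75.4 kb downstream of its start. The 5 members from 9.17 to 23.3 kb shared a marked region of 27177 bp. Gzmb, which encodes granzyme B, had 3 members, 22.3, 25.7 and 34.8 kb upstream, and Gzmk, another granzyme gene, had 3, of which 1 lay upstream at 71.6 kb. Xcl1, the gene of lymphotactin, had 6, all upstream, from 18.2 to 185 kb, and the farthest of them was the only one without H3K4me1.

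Among receptor genes, Klrb1c, which encodes NK1.1, had 10 members from 14 kb upstream to 57 kb downstream of its start, all marked. Klrb1b, an inhibitory receptor of the same family, had 7, of which 4 also flanked Klrb1c. Klrg1, an inhibitory receptor of mature NKC, had 7, at 9.08, 11.1, 12.5 and 20 kb upstream and at 12.5, 13.6 and 23.9 kb downstream. Cxcr4, the receptor for the chemokine Cxcl12, had 8 upstream and 4 downstream, from 13.7 to 217 kb and from 22.1 to 156 kb from the start. Ccr2 had 7, of which 5 formed the cluster 57.8 to 68.4 kb upstream, next to Ccr3. S1pr1, the sphingosine 1-phosphate receptor for lymphocyte egress, had 6, of which 5 lay 22.5 to 45.7 kb downstream. Ifnar1, a chain of the type I interferon receptor, had 6 and Il21r, the interleukin 21 receptor, had 5. Il2ra, the α chain of the interleukin 2 receptor, had 1, and Cd69, an early activation antigen, had 2.

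Among transcription factor genes, Runx3 itself had 7 members, all upstream. They lay 11.8, 17.9, 21.9, 40.2 and 43.6 kb and, farther out, 152 and 174 kb from the Runx3 start. The pair at 40.2 and 43.6 kb shared a marked region of 21916 bp, and the pair at 17.9 and 21.9 kb one of 12650 bp. Tbx21 had 4 members, 8.42, 13.9, 15.5 and 17.2 kb upstream, all on the region of 35717 bp. Nfil3, a factor needed for NKC development, had 5 members 5.38, 8.13, 17.7, 19.6 and 20.6 kb upstream on 2 marked regions of 5732 and 7700 bp. Eomes, the T-box factor related to T-bet, had 5, of which 3 lay 54.1 to 59.5 kb upstream on a region of 13638 bp and 2 lay 8.38 and 10.2 kb downstream of its start. Prdm1, the gene of Blimp-1, had 5, Ets1 had 3 upstream, and Ets2 had 6, all over 100 kb downstream of its start.

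The next genes come from the T cell, B cell, myeloid and other-tissue lists. Among them, Cd3d, Cd3e, Cd247, Cd22, Cr2, Ebf1, Csf1r, Emr1 and Myod1 had 1 member each beside them, and Cd3d and Cd3e shared theirs. Of these genes, only Cd247 had a Runx3 peak at its own start. Cd3d, Cd3e and Cd247 encode chains of the T cell receptor complex, Cd22 and Cr2 are surface receptors of B cells, and Csf1r and Emr1 mark macrophages. The member beside Ebf1, a B cell factor, lay 1177.5 kb downstream of its start. The member beside Myod1, a muscle factor, lay on a marked region of 17243 bp with 2 Runx3 peaks.

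The RUNX consensus was frequent in the members. At least 1 of the 4 hexamers, sought on both strands, was present in 2450 members (94.9%, interval 93.9 to 95.6%), against 93.3% of all Runx3 peaks. Windows of the same width 5 kb to either side that held no Runx3 peak (4809 windows) gave 73.3%. In the central 200 bp the shares were 74.1% (interval 72.4 to 75.8%) in members, 69.2% in all Runx3 peaks and 28% in the flanking windows. By hexamer, TGTGGT was found in 77.2% of members and 49.8% of flanking windows, TGTGGC in 55.8% and 44%, TGCGGT in 17.7% and 6.2%, and TGCGGC in 14.2% and 6.32%. TGCGGC was more frequent in members (interval 12.9 to 15.6%) than in intragenic peaks (9.84%, interval 8.84 to 10.9%) and less frequent than in peaks under 1 kb from a start (48.3%). For TGCGGT the intervals of members (16.3 to 19.2%) and intragenic peaks (15.7%, interval 14.4 to 17%) overlapped. The members had a median GC content of 47.45%, compared with 45.1% in the flanking windows, 47.46% in intragenic peaks and 57.97% under 1 kb from a start.

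**Figure D5:**
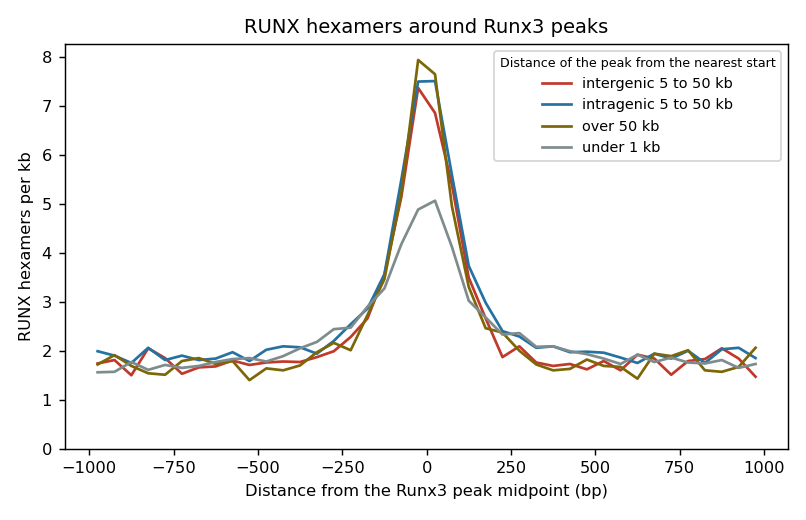
RUNX hexamers per kb on both strands, in bins of 50 bp, by distance from the Runx3 peak midpoint (bp) for 4 position classes. The intergenic distal peaks reach 7.36 and 6.85 per kb in the bins left and right of the midpoint and fall to 1.74 and 1.47 per kb at 1 kb, and the peaks under 1 kb from a start reach 5.06 per kb.

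Motifs of other factor families were also sought in the members, as letters only. The ETS heptamers AGGAAGT and CGGAAGT were found in 42.1% of members, 41.8% of all Runx3 peaks and 22% of flanking windows. A RUNX hexamer and an ETS heptamer with starts within 50 bp of each other were found in 17.6% (interval 16.2 to 19.1%), 15.9% and 3.93%. The AP-1 heptamer TGAGTCA was found in 21.2% (interval 19.7 to 22.8%), 16.5% and 15%, with 20.4% in intragenic peaks and 21.1% in peaks over 50 kb out, both within the interval of the members. The T-box octamer AGGTGTGA was found in 7.01% (interval 6.09 to 8.06%), 5.92% and 3.95%, with 7.76% in intragenic peaks and 8.8% (interval 7.4 to 10.4%) in peaks over 50 kb out. Each was searched on both strands, none contains another, and matches of different motifs may overlap.

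The members without a RUNX hexamer numbered 133. Of these, 121 (91%, interval 84.9 to 94.8%) overlapped H3K4me1, and their median width was 695 bp. They include the member 5.32 kb upstream of Ifng, the member 13.1 kb downstream of the Ccr2 start and 2 of the 7 members of the cluster beside 6430527G18Rik.

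The members without H3K4me1 numbered 131 and mostly stood apart from other members. Only 6 of them belonged to a cluster, compared with 972 of all 2583 members, and Runx3 peaks of other classes were not counted here. The nearest marked region lay at a median of 13.1 kb, and 16 of the 131 had one within 2 kb of an edge. Their median width was 667 bp (interval 636 to 708 bp), compared with 820 bp (interval 811 to 830 bp) for the 2452 marked members. A RUNX hexamer in the central 200 bp was found in 74.8% of them (interval 66.7 to 81.5%) and in 74.1% of the marked members (interval 72.3 to 75.8%).

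The widest members included some without the mark, although unmarked members were narrower by median (667 bp against 820 bp). The widest (chr2:77857828-77865343, 7516 bp) lay between Cwc22, which encodes a splicing factor, and Ube2e3, and the second (chr7:17237865-17240758, 2894 bp) between Grlf1 and Ceacam15, and neither overlapped H3K4me1. The other 3 of the 5 widest did: 2802 bp between H60b and Raet1d, both of which encode ligands of the receptor NKG2D, 2558 bp downstream of the start of Zfp36l2, and 2351 bp between Ifnar1 and Ifngr2. The remaining members among the 5 widest without the mark lay upstream of Scaf8 (2286 and 1185 bp) and of Hfe2 (1981 bp). The pair upstream of Scaf8 held 22 and 24 RUNX hexamers, whereas the median member held 2.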

How the data were processed

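Per the labels and methods, the authors sequenced ChIP DNA on an Illumina Genome Analyzer IIx, aligned reads to mm9 with ELAND (CASAVA 1.7), joined the reads of their biological repeats and called peaks with MACS against NIS. The deposited values are region coordinates, given by the authors with no score, p-value, fold or count, so the depth behind a region is unknown here. The NIS sample has no list of its own. Starts and gene bodies came from GENCODE M1 (86803 start positions, mm9). RefSeq, which the study used, was at hand for another build and was not used. Each peak was assigned to the H3K4me1 region that shared the most bases, and 64 members shared bases with more than 1 region. Shares carry Wilson intervals and medians order-statistic intervals. No test was run. Bases that met the rule were sampled every 100 bp for the territory shares by side, orientation and nearest gene.

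Named genes and regions followed 1 rule: the 5 widest members, the 5 largest clusters (ties by shorter span), the 5 widest marked regions, the 5 widest unmarked members, the 10 genes with most members beside them, the 3 leading genes of each of 10 lists, 10 genes chosen by name (Ifng, Tbx21, Eomes, Il2ra, Prdm1, Gzmb, Ccl5, Xcl1, Ets1 and Cd69), and the peaks at the bounds. Il2rb, Nfil3, Xcr1 and the further clusters were named after their values were seen. The members and lists were chosen with earlier results of these data known. Calculations used Python 3.11.15, numpy 2.4.6, pandas 2.3.3, scipy 1.17.1 and matplotlib 3.10.9, and the overlap, distance and cluster code was tested on simulated data. The alternatives changed the starts, gene bodies, bounds, chromosomes, lists, overlap rule and windows.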

Additional observations from a re-analysis of the deposited data

How the results depend on the processing

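Of 48 alternatives, 30 left the value within 1.5 times for a count or within its interval for a share or median, and these included every change of start set and gene bodies and the removal of chromosome X. With Runx3 peaks wider than the median alone, 1222 members remained, 98.2% overlapped H3K4me1, the median region width was 4126 bp, 36.6% had a neighbour within 10 kb, 26.5% had Runx3 at the start of the nearest gene and 97.2% held a RUNX hexamer. This setting also thins the peaks that can serve as neighbours or lie at starts. The overlap was 93.4% by midpoint and 93.4% with 50% of the peak covered, and 83.4% with marked regions wider than the median alone. The median region width was 3716 bp with regions under 1 kb apart joined, and 3716 bp with a region counted once per member. The share with a neighbour was 44.3% with a lower bound of 10 kb, 29.9% within 5 kb, 65.1% within 20 kb and 41.5% with peaks under 1 kb apart joined. Runx3 at a start was 37% within 500 bp and 59.7% for either flanking gene. RUNX hexamers in the central 200 bp were found in 74.1%. No paired analysis was possible because each antibody has 1 list. Without scores, signal strength, a stricter calling threshold and the spread between repeats could not be examined.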

Other observations

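A set of 9 members lay in the wide space between Gm7112 and Ighv1-73, in the immunoglobulin heavy chain locus, at 1 per 100 kb of bases that met the rule. The space between Ugcg and Susd1 held 9 members as well, at 11.5 per 100 kb, and 78.3% of its bases that met the rule were marked. Of the members, 109 (4.22%) lay in the body of a gene that is not protein-coding, compared with 4.91% of the bases that met the rule. Of these, 66 lay in lincRNA genes. The cluster of 5 between Fndc1 and Tagap, which encodes a GTPase-activating protein of lymphocytes, lay wholly in such a gene body, on 5 separate marked regions.

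The members made up between 8.39% (chromosome 8) and 22.5% (chromosome 6) of the Runx3 peaks of a chromosome, with 21.3% on chromosome 1. Chromosome X held 33 members, of which 81.8% overlapped H3K4me1. The 6 members with the most RUNX hexamers held between 18 and 51, and only the first of them, between Dyrk1a and Kcnj6, overlapped H3K4me1. These were picked out after their values were seen, and whether they hold repeated sequence was not tested.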
